A study of Mus musculus with 321 samples.

Results

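ATAC-seq peak lists of wild-type CD4+CD8+ (DP) thymocytes were set against those of NIH3T3 fibroblasts that had received a retrovirus without an insert (Empty RV, called Empty). All 6 lists were used: 2 DP WT libraries and 4 Empty libraries, of 321 samples in the series, 16 of which had a file of their own. The peaks of the 6 libraries were merged wherever they shared at least 1 bp, which gave 77184 regions. A region was called thymocyte-only if both DP WT libraries and no Empty library held a peak in it, fibroblast-only if all 4 Empty libraries and no DP WT library did, and shared if all 6 did. These classes held 10020, 12426 and 7647 regions.

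The DP WT cells were sorted directly from animals of the strain and genotype labelled C56BL/6 (WT). The Empty cells belong to an established mouse fibroblast line of NIH/Swiss origin, cultured at passages 8 to 12. Libraries that the classes did not use were 2 of DP thymocytes labelled TCF-1-/- deltaVII (KO), which lack functional Tcf-1, and 4 of NIH3T3 cells with a retrovirus that expresses Tcf-1 (Tcf-1 RV). The repressive histone marks H3K27me3 and H3K9me3 were mapped by ChIP-seq in NIH3T3 cells, in 2 libraries per mark. A pooled list of 40562 Tcf-1 ChIP-seq summits came from Tcf-1 RV cells. Cell type, strain, the sort against culture and the retrovirus all differ between the DP WT and the Empty libraries and cannot be told apart. Tagmentation lasted 45 to 75 min depending on the cell type. The labels leave unsaid whether replicates were independent animals or cultures. The tests therefore measure the spread between libraries, which may be technical.

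ATAC-seq marks DNA that a transposase can reach, chiefly active promoters and enhancers. DP thymocytes are the stage of T cell development at which the Rag1 and Rag2 recombinase assembles the T cell receptor alpha gene and at which both coreceptors, CD4 and CD8, are on the surface. Fibroblasts make the extracellular matrix. H3K27me3 is laid down by Polycomb complexes, often over developmental genes that a cell type does not use, and H3K9me3 marks heterochromatin, including repeats and silenced genes. Both marks were measured in the fibroblast line alone, so the values below say nothing about the marks in thymocytes.

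Promoter windows from RefSeq (assembly GRCm38.p6, 250 bases before to 50 bases after a start site) are printed as 8 windows of 7 genes. They are examples from each class, chosen after their values were seen, and need not be typical of it. Capitals mark any match, on either strand, to the short motifs of TCF/LEF (ATCAAAG), RUNX (AACCACA), ETS (GGAAGT), AP-1 (TGANTCA), TEAD (CATTCCA) and the GATA family, which is read as the letters AGATAA here, and to the E-boxes written as CAGCTG or as CACCTG, and all other bases are in lower case. Rag1, Ptcra (the pre-T cell receptor alpha chain) and Cd3e (a signalling chain of the receptor) had a thymocyte-only region over the start site that also lay in an H3K27me3 island of NIH3T3. Satb1, a chromatin organiser of thymocytes, had a CpG-rich start site in an H3K9me3 island. Runx1 is printed at its distal start site, under a thymocyte-only region, and at its proximal one, under a shared region. Ankrd1, a target gene of Yap and Tead, and Emp1, a membrane protein, are examples of fibroblast-only start sites. The Ankrd1 window lay in an H3K9me3 island, which holds for 10 of 424 fibroblast-only promoters, and the Emp1 window in neither mark. Of 901 thymocyte-only promoters, 541 lay in neither mark. An AP-1 match was in 15.6% of fibroblast-only promoters.
Rag1, chr2:101649483-101649782, minus strand: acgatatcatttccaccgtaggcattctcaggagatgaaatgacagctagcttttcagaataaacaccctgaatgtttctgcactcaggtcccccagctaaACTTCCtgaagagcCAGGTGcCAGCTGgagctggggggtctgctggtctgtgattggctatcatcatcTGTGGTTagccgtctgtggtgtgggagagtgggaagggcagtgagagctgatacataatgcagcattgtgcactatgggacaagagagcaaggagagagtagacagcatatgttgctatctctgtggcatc
Ptcra, chr17:46763663-46763962, minus strand: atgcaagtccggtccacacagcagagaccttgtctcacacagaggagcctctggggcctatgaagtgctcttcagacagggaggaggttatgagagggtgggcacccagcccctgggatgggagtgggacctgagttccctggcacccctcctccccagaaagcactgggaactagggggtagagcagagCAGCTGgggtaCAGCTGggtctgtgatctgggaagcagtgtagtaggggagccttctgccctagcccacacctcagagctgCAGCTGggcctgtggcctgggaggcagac
Cd3e, chr9:45009562-45009861, minus strand: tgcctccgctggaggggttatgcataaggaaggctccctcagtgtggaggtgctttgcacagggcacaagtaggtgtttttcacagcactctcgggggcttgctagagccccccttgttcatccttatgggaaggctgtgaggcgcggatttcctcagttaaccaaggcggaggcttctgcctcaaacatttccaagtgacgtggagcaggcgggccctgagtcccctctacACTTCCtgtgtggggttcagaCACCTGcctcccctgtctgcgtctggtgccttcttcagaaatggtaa
Satb1, chr17:51832598-51832897, minus strand: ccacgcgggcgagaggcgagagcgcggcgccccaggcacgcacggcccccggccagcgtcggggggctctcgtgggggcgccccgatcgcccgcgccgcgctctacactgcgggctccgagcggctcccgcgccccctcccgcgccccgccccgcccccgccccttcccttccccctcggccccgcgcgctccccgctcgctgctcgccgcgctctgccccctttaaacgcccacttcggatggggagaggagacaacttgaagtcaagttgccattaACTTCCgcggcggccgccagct
Runx1 distal, chr16:92826025-92826324, minus strand: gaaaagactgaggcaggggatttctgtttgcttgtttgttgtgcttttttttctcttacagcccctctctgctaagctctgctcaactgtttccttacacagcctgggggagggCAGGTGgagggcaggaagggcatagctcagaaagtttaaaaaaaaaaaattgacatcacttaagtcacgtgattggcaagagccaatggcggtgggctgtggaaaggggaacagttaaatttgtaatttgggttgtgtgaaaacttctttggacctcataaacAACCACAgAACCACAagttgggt
Runx1 proximal, chr16:92697280-92697579, minus strand: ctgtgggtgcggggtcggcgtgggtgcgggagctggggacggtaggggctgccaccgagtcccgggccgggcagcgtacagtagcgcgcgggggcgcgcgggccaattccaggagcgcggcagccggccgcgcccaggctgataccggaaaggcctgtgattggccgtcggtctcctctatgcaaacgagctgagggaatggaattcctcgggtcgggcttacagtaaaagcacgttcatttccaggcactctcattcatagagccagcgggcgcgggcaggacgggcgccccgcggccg
Ankrd1, chr19:36119795-36120094, minus strand: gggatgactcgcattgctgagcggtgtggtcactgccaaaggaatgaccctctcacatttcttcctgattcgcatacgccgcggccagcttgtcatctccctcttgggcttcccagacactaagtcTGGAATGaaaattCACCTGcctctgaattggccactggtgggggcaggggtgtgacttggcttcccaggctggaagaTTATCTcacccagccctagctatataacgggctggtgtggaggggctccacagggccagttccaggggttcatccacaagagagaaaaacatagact
Emp1, chr6:135362681-135362980, plus strand: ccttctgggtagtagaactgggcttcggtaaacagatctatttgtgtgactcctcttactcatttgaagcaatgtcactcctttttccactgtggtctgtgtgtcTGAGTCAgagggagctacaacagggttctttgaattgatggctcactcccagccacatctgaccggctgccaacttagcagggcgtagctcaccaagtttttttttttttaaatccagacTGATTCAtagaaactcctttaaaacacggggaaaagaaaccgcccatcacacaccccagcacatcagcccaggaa
Rag1 holds 1 match each of the RUNX, ETS, CAGCTG and CACCTG motifs, and Ptcra holds 3 of CAGCTG. The distal Runx1 window holds 2 RUNX matches, while the proximal one holds none of the 8 motifs. Ankrd1 holds a TEAD match and Emp1 2 AP-1 matches. The Satb1 window has a GC content of 76.7% and 45 CpG dinucleotides, against 50.0% and 3 in that of Rag1.

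No file gives a read depth, so the length of a list was the one measure of how much was called. The DP WT lists held 23249 and 30985 peaks, and the Empty lists 22778, 34601, 46819 and 58026. The Empty libraries differed more among themselves than DP WT did from them (27117 ± 5470 peaks, SD, n = 2, in DP WT, and 40556 ± 15231, n = 4, in Empty; exact permutation test, two-sided, p = 0.4). The file names, not the labels, tag the 2 shorter Empty lists with day 2 and the 2 longer ones with day 4. A division of 2 libraries against 4 cannot give a two-sided p below 0.1333, and 6 of the 7 measures compared between libraries reached that bound with no overlap between groups (0.1556 after Benjamini-Hochberg adjustment over the 7), so none could pass a threshold of 0.05.

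Peaks of DP WT lay closer to genes. In DP WT, 41.1% and 35.2% of peaks were no more than 1 kb from where a protein-coding gene begins or ends, against 31.7%, 28.1%, 23.3% and 20.0% in Empty. The 2 DP WT libraries were above all 4 Empty libraries (38.2% ± 4.11, n = 2, in DP WT and 25.8% ± 5.16, n = 4, in Empty, SD; exact permutation p = 0.1333). In Empty this share fell as lists grew longer, from the shortest list to the longest. Peaks inside genes made up 60.4% and 60.1% in DP WT, against 53.9% to 54.5% in Empty. The median peak was 339 and 353 bp wide in DP WT, against 290, 317, 317 and 318 bp in Empty.

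The share of peaks in repressive islands of the fibroblast line split by mark. A peak midpoint lay in an H3K27me3 island of both histone libraries for 7.85% and 8.48% of DP WT peaks, against 0.487%, 1.07%, 2.01% and 2.77% of Empty peaks. The groups did not overlap, and the mean was 5.15 times as high in DP WT (8.16% ± 0.444, n = 2, against 1.59% ± 1.01, n = 4; exact permutation p = 0.1333). Among the Empty lists the share was lowest in the shortest and highest in the longest. Cut to the 22778 widest peaks of every library, DP WT still exceeded Empty, by 7.16 percentage points. H3K9me3 went the other way: 4.31% and 4.50% of DP WT peaks lay in islands of that mark, against 5.40% to 5.83% of Empty peaks. A Tcf-1 summit of Tcf-1 RV cells fell in 10.2% and 9.08% of DP WT peaks, against 22.9% to 29.7% of Empty peaks.

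**Figure D1:**
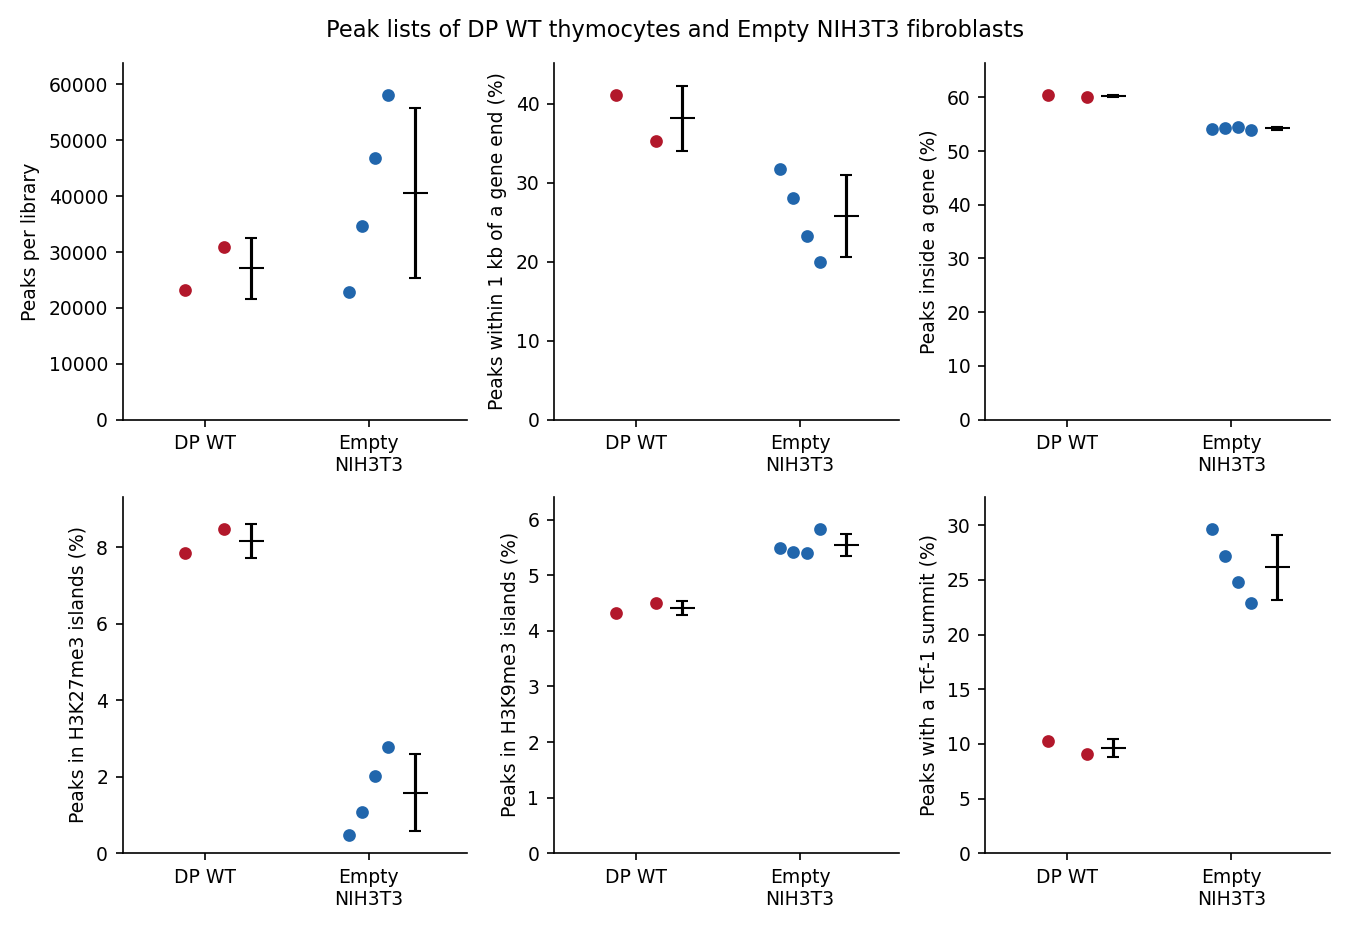
Each point is one library of DP WT thymocytes (left, 2 libraries) or Empty NIH3T3 fibroblasts (right, 4 libraries); the y axes give the number of peaks or the percentage of a library's peaks, and the bar beside the points is the mean ± SD. The groups overlap in the number of peaks, while DP WT peaks lie higher for gene ends, genes and H3K27me3 (7.85% and 8.48%, against 0.487% to 2.77%) and lower for H3K9me3 and Tcf-1 summits.

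Of the 77184 merged regions, 13% were thymocyte-only, 16.1% fibroblast-only and 9.91% shared. The remaining regions had other patterns. Just outside the thymocyte-only class were 794 regions with a peak in both DP WT libraries and in 1 Empty library, and 6254 in 1 DP WT library alone. Just outside the fibroblast-only class were 588 regions with a peak in all 4 Empty libraries and in 1 DP WT library, and 7750 in 3 Empty libraries alone. Just outside the shared class were 2112 regions with both DP WT libraries and 3 Empty libraries. Without DP WT replicate 1, the shorter of the DP WT lists, the thymocyte-only class held 15962 regions, and without Empty replicate 1, the shortest Empty list, the fibroblast-only class held 19359. Absence from a list was not measured signal: the lists give no value at a place without a peak.

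Shared regions sat at gene ends, and the exclusive classes away from them. Of thymocyte-only regions 14.9% lay within 1 kb of a gene end, of fibroblast-only regions 6.38%, and of shared regions 75.9% (95% Wilson intervals 14.2% to 15.6%, 5.97% to 6.83% and 75.0% to 76.9%). More than 50 kb from any gene end were 25.2%, 34.6% and 4.03%. The median distance was 17574.5 bp for thymocyte-only, 27242 bp for fibroblast-only and 0 bp for shared regions. The median width was 377, 442 and 787 bp in the same order. Intervals cover counting error only, and regions of one library set are not replicates of a condition. Gene spans carry no strand here, so a gene end may be the start or the finish of a gene. With promoter windows in place of gene ends, the thymocyte-only share was 10.2%.

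**Figure D2:**
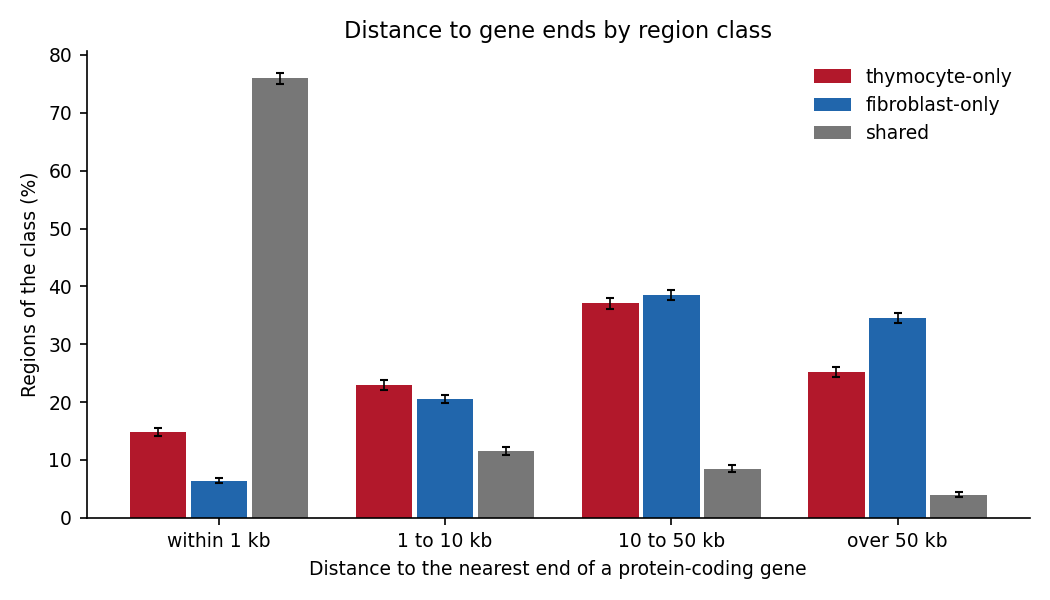
Percentage of regions (y axis) by distance to the nearest end of a protein-coding gene (x axis) in thymocyte-only, fibroblast-only and shared regions, with 95% Wilson intervals for counting error. The shared class is concentrated within 1 kb (75.9%), and both exclusive classes spread from 1 kb to beyond 50 kb.

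H3K27me3 of the fibroblast line lay over more of the thymocyte-only class than of the others. The class rule asked for no Empty peak in thymocyte-only regions and for all 4 Empty libraries in the other classes. The islands come from the same line, so this contrast cannot be told apart from the presence or absence of a fibroblast peak. Of its 10020 regions, 1508 (15.1%) had their midpoint in an H3K27me3 island of both histone libraries, against 61 of 12426 fibroblast-only (0.491%) and 28 of 7647 shared regions (0.366%). Each histone library alone gave 19.1% and 18.4% of thymocyte-only, 0.942% and 0.909% of fibroblast-only and 0.824% and 0.719% of shared regions, so the gap between classes was far wider than that between the libraries. Of all merged regions 5.30% lay in these islands, 5.26% at gene ends and 5.31% away from them. At gene ends the shares were 24.1% for thymocyte-only, 0.631% for fibroblast-only and 0.258% for shared regions. Away from gene ends they were 13.5%, 0.481% and 0.707%. Without Empty replicate 1 the shares were 1.09% of fibroblast-only and 0.805% of shared regions, and for thymocyte-only regions leaving out any 1 library gave 14.5% to 15.1%. With the 2 Empty libraries of the day 4 tag alone, 2.08% of fibroblast-only and 1.30% of shared regions lay in these islands. The share of thymocyte-only regions was 22.5% with islands of either histone library and 9.44% with islands of at least 2-fold over control.

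H3K9me3 told the exclusive classes apart by place. Over all regions the shares were close, at 7.63% of thymocyte-only (95% interval 7.12% to 8.16%) and 8.08% of fibroblast-only regions (7.61% to 8.57%), against 1.01% of shared regions and 6.25% of all merged regions. At gene ends 13.8% of thymocyte-only regions (12.2% to 15.7%) lay in H3K9me3 islands, against 4.16% of fibroblast-only ones (2.98% to 5.79%) and 3.25% of all merged regions there. Away from gene ends the order was the reverse, 6.54% (6.04% to 7.09%) against 8.35% (7.86% to 8.86%), with all merged regions at 6.91%, so that thymocyte-only regions were near the share of all. The separate H3K9me3 libraries kept both orders, with 15.1% and 16.3% against 4.67% and 5.42% at gene ends and 8.10% and 9.13% against 10.7% and 11.7% away from them. With islands of at least 2-fold over control, the shares over all regions were 4.33% of thymocyte-only and 3.73% of fibroblast-only regions. Under that setting the orders at gene ends and away from them were not tested. The 2 marks rarely met, with 63 thymocyte-only, 2 fibroblast-only and 2 shared regions in both.

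**Figure D3:**
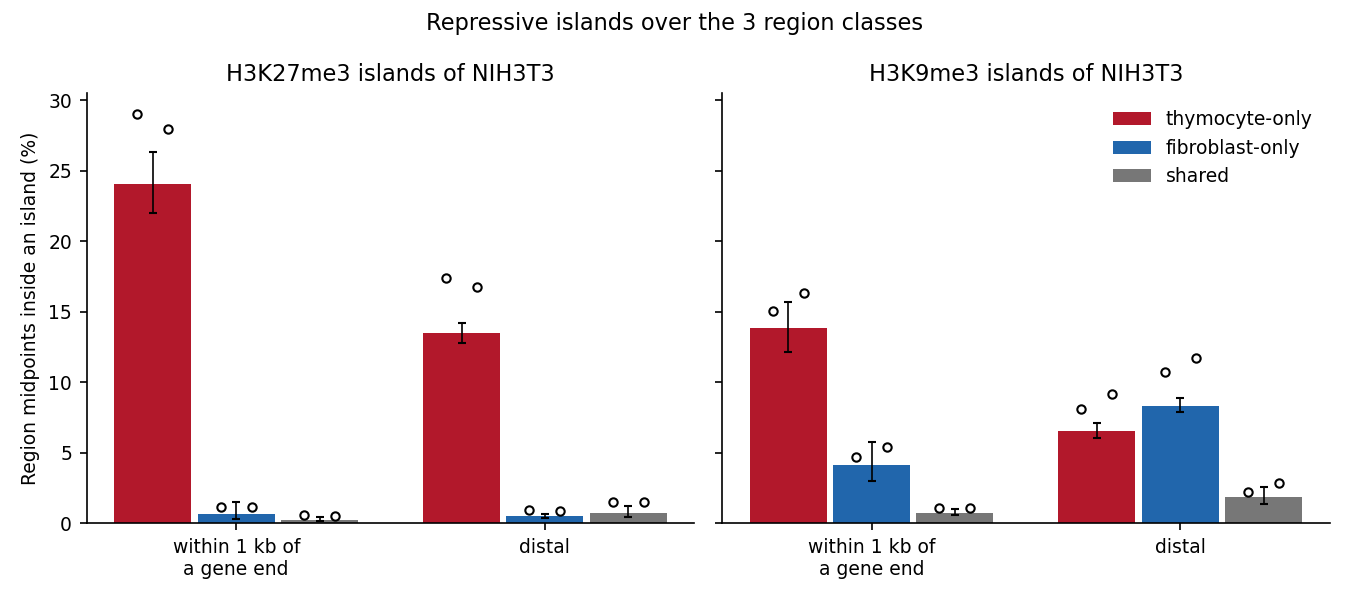
Percentage of region midpoints (y axis) inside H3K27me3 (left) and H3K9me3 (right) islands of NIH3T3, at gene ends and away from them, for the 3 classes. Bars are islands found in both histone libraries with 95% Wilson intervals for counting error, and open circles are each histone library alone; the H3K27me3 bars of the thymocyte-only class reach 24.1% and 13.5% while the other classes stay below 1%.

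The same split was seen gene by gene. Of 21887 protein-coding genes, 3611 (16.5%) had an H3K27me3 island at one of their ends and 2054 (9.38%) an H3K9me3 island. Of the 1246 genes whose ends carried thymocyte-only but no fibroblast-only or shared regions, 36.3% had H3K27me3 at an end and 17.5% had H3K9me3. Of 637 genes with fibroblast-only ends, 7.54% and 8.79% did. Of 6770 genes with a shared region at an end, 2.57% and 3.59% did. Genes without a region of any kind at their ends, 9570 in number, had H3K27me3 in 25.2% and H3K9me3 in 13.4%.

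Every gene of the T cell receptor machinery that was examined had a thymocyte-only region. At least 1 such region was assigned to 4814 of all genes (22%), a fibroblast-only region to 5353 (24.5%) and a shared region to 6871 (31.4%), taking the nearest gene within 50 kb. Of 15 genes for the receptor complex and its coreceptors, 15 had a thymocyte-only region, 6 a fibroblast-only region and 0 a shared region. Of 18 signalling genes downstream of the receptor, the counts were 18, 5 and 2. The members and lists were chosen with earlier results of these data known, so these counts describe the lists and carry no test.

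Cd4, the coreceptor for class II molecules, had 2 merged regions, both thymocyte-only and both in H3K27me3 islands (chr6:124879432-124879779 and chr6:124885203-124885585). Cd8a, the coreceptor for class I molecules, had 4, all thymocyte-only and 3 of them in H3K27me3 islands, the one at its end at chr6:71373348-71373640. Cd3e had 1 thymocyte-only region among its 3, at its end (chr9:45009293-45009826). Cd247, the zeta chain that carries the signal inward, had 10 thymocyte-only regions, 5 in H3K27me3 islands, against 1 fibroblast-only. Cd28, the costimulatory receptor, had 6 against 0, and 4 of the 6 were in H3K27me3 islands. In total 10 of the 15 genes of this list had H3K27me3 at an end in the fibroblast line, against 16.5% of all genes.

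Among signalling genes, Prkcq, a protein kinase C of T cells, had 6 thymocyte-only regions against 0 fibroblast-only, none of them in an H3K27me3 island. Lck, the kinase that starts receptor signalling, had 2, both in H3K27me3 islands, and both of its start sites in the RefSeq table lay under a thymocyte-only region. Fyb, an adaptor protein, was an exception with 2 thymocyte-only against 5 fibroblast-only regions. H3K27me3 marked an end of 8 of the 18 genes.

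All 4 genes listed for recombination of receptor genes had thymocyte-only regions, none had fibroblast-only or shared ones, and all 4 carried H3K27me3 at an end in NIH3T3. Rag1 and Rag2, which cut the receptor genes, each had 1 merged region, at the gene end (chr2:101649446-101649835 for Rag1 and chr2:101624622-101624950 for Rag2). Dntt, which adds untemplated nucleotides at the joins, had 3 thymocyte-only regions, all in H3K27me3 islands.

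T lineage transcription factors had a more mixed pattern. Of 20, 16 had thymocyte-only regions, 11 fibroblast-only and 7 shared ones. Tcf7, which encodes Tcf-1, had 5 thymocyte-only regions, none within 1 kb of a gene end. The 3 that lay 26191 to 35226 bp outside the gene were in H3K27me3 islands, and Tcf7 also had 1 fibroblast-only region inside the gene. Bcl11b, which seals T lineage commitment, had 6 against 1, including 1 at an end under H3K27me3 (chr12:108003984-108004366). Gata3 had 2 thymocyte-only regions and 1 shared one, and Ikzf1 had 8 against 0. Tox had 9 against 1, none of them in an H3K27me3 island.

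Runx1 held regions of all 3 classes, with 10 thymocyte-only, 4 fibroblast-only and 1 shared region. The thymocyte-only region at chr16:92826091-92826414 overlapped the distal promoter window printed above, and the shared region at chr16:92697292-92697759 the proximal one. All 4 fibroblast-only regions of Runx1 held a Tcf-1 summit, beside 43.6% of the whole fibroblast-only class. All 4 were called in at least 3 of the 4 Tcf-1 RV libraries, each of which called 88.3% to 97.6% of that class. Ets1 was also mixed, with 7 thymocyte-only, 5 fibroblast-only and 2 shared regions. Zbtb7b, which directs the CD4 fate after the DP stage, had 0 thymocyte-only and 2 fibroblast-only regions, one of them over its end (chr3:89393575-89394079).

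All 11 listed receptors for homing and cytokines had a thymocyte-only region, with 3 and 2 for the fibroblast-only and shared classes. Cxcr4, the chemokine receptor that keeps DP cells in the cortex, had 7 merged regions and all 7 were thymocyte-only. Of 16 pan-leukocyte genes, 12 had thymocyte-only and 2 fibroblast-only regions. Among markers of other cells that a sort could hold, thymocyte-only regions occurred at 3 of 9 genes for B cells, 2 of 10 for myeloid cells, 2 of 7 for erythroid cells, 2 of 8 for thymic epithelium and 5 of 10 for natural killer and effector T cells, beside 22% of all genes. Listed genes without any merged region included Cd79a and Ms4a1 of B cells, Adgre1 and Mpo of myeloid cells and Hbb-bs of erythroid cells. For thymic epithelium they included Krt5 and Psmb11. Spi1, Csf1r and Lyz2 of myeloid cells and Foxn1 and Krt8 of thymic epithelium had merged regions, none of them thymocyte-only. The listed genes that did have thymocyte-only regions were Blk, Ebf1 and Pax5 for B cells, and Cebpa and Itgam for myeloid cells. For erythroid cells they were Tal1 and Klf1, and for thymic epithelium Aire and Epcam. For natural killer and effector T cells they were Klrb1c, Prf1, Gzmb, Ifng and Eomes. Blk, Cebpa, Klf1, Aire, Prf1 and Eomes had such a region at a gene end. Peak lists hold no level and these counts do not give one, and the part of other cells in the thymocyte-only class was not tested.

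**Figure D4:**
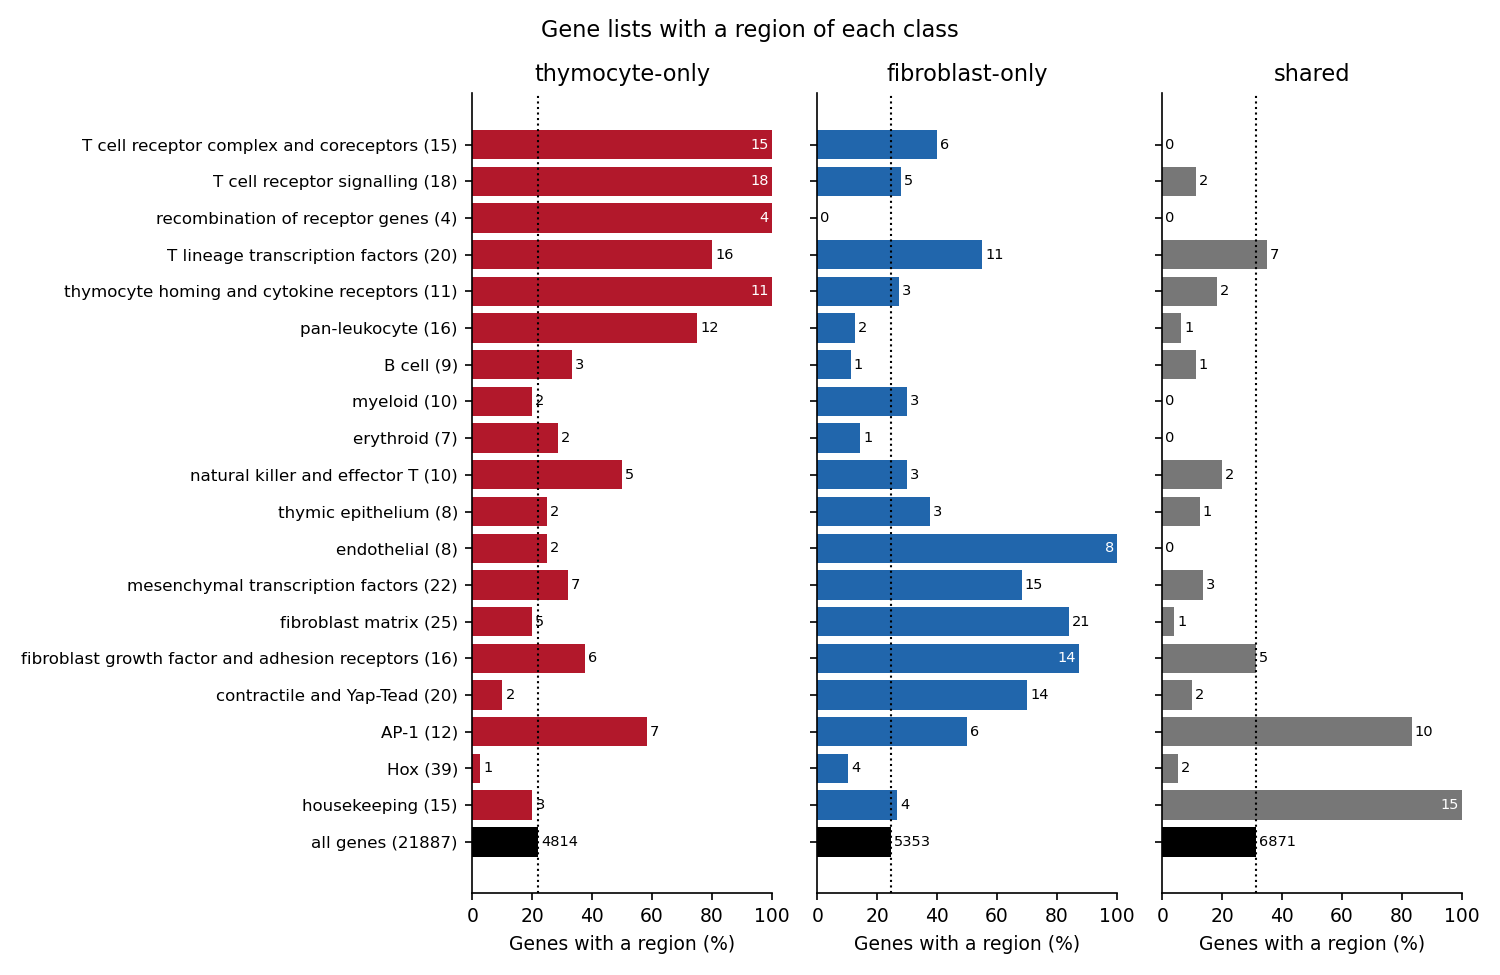
Percentage of genes in each list (number of genes in parentheses) with at least 1 thymocyte-only (left), fibroblast-only (middle) or shared region (right), the number of such genes beside each bar, and all genes in black with a dotted line. Lists of T cell genes reach 80% to 100% in the left panel, matrix and receptor lists 84% and 87.5% in the middle one, where the endothelial list is at 100%, and housekeeping genes 100% in the right one.

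Genes of the fibroblast programme had fibroblast-only regions more often than thymocyte-only ones. Over all genes the shares were 24.5% and 22%. Of 25 matrix genes, 21 had a fibroblast-only region, 5 (20%) a thymocyte-only and 1 a shared region. In NIH3T3, 0 of the 25 had H3K27me3 at an end, beside 16.5% of all genes. H3K9me3 was at an end of 4 of the 25 (16%), Tnc and Mmp2 among them, beside 9.38% of all genes. Tnc, the matrix protein tenascin C, had 8 fibroblast-only regions against 0, and 5 of the 8 held a Tcf-1 summit, beside 43.6% of all fibroblast-only regions. Mmp2, a protease that cuts collagen, had 6 against 0. Col1a2, a chain of type I collagen, had 3 against 0, one of them over its promoter (chr6:4505202-4505842), while Col1a1, the other chain, had 1 and none within 1 kb of its ends. Fn1, which encodes fibronectin, had 2 merged regions and neither was in an exclusive or the shared class.

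Of 22 mesenchymal transcription factors, 15 had fibroblast-only, 7 thymocyte-only and 3 shared regions. The thymocyte-only share was 31.8%, beside 22% of all genes. H3K27me3 was at an end of 2 of the 22, and H3K9me3 of 6 (27.3%, beside 9.38% of all genes). Nfib had 10 against 0, and Glis3 had 8 fibroblast-only and 3 thymocyte-only regions. Twist1, a driver of mesenchymal fate, had a single region, fibroblast-only and 1356 bp wide, over an end of the gene (chr12:33956957-33958312). Runx2, the factor of bone formation, had 6 fibroblast-only and 4 thymocyte-only regions. Prrx1 had 7 merged regions, none of them in the 3 classes.

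Of 16 growth factor and adhesion receptors, 14 had fibroblast-only and 6 thymocyte-only regions (37.5%, beside 22% of all genes). Met, the receptor of hepatocyte growth factor, had 7 against 0. Pdgfra had 1 against 0, and Pdgfrb, the other receptor of platelet-derived growth factor, had 5 merged regions of which none were in the 3 classes. Tgfbr2 went the other way, with 5 thymocyte-only and 1 fibroblast-only region and a shared one at its end. Of 20 contractile and Yap-Tead genes, 14 had fibroblast-only and 2 thymocyte-only regions (10%). Ccn1 and Amotl2, targets of Yap, and Wwtr1, which encodes the Yap relative Taz, each had 5 against 0. Endothelial genes, listed as a lineage that neither label names, had fibroblast-only regions in 8 of 8, with 4 at Erg, an ETS factor of endothelium.

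Most genes of the housekeeping and AP-1 lists had a shared region at an end, beside 30.9% of all genes. All 15 housekeeping genes had a shared region, 13 of them at an end, and 3 and 4 had thymocyte-only and fibroblast-only regions besides. Of 12 AP-1 genes, 10 had a shared region, 8 of them at an end, but 7 also had thymocyte-only and 6 fibroblast-only regions. Of these, Bach1 had 9 thymocyte-only regions against 1 and Bach2 4 thymocyte-only against 8 fibroblast-only. Atf3 had a fibroblast-only and Batf a thymocyte-only region at an end. Of 39 Hox genes, 1, 4 and 2 had regions of the 3 classes, and 26 had H3K27me3 at an end. Hoxa5 and Hoxa3 had fibroblast-only promoters, while Hoxa13 had a thymocyte-only one in an H3K9me3 island.

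The genes with the largest differences between the numbers of thymocyte-only and fibroblast-only regions were picked by that difference, so their counts are a description. Wwox, an oxidoreductase gene over 913078 bp, led with 17 thymocyte-only and 3 fibroblast-only regions, and 15 of the 17 were in H3K9me3 islands. Pik3r1, a subunit of phosphoinositide 3-kinase, had 11 against 0. Ppp1r16b had 10 against 0, with 9 in H3K27me3 islands. Rftn1, a lipid raft protein, Spata13 and Itga9 had 10 against 0 as well, with 1 region of Rftn1 in an H3K27me3 island and none of the other 2 genes. At the other end Lpp had 3 thymocyte-only and 15 fibroblast-only regions, Nrg1 0 and 12, Bnc2 0 and 11, Dlc1 0 and 10, and Myof 0 and 9. Both exclusive classes occurred at 2073 genes, which is 43.1% of genes with a thymocyte-only and 38.7% of those with a fibroblast-only region. These genes were long, with a median span of 75.3 kb, against 26.95 kb for genes with thymocyte-only but no fibroblast-only regions, 34.9 kb for the reverse and 17.2 kb for all genes.

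The classes were then read in the 6 ATAC-seq libraries that had not defined them. Of thymocyte-only regions, 21.4% and 27.1% had a peak in the 2 KO libraries of DP thymocytes, against 2.02%, 1.36%, 0.359% and 3.32% in the 4 Tcf-1 RV libraries of NIH3T3. Every KO library was above every Tcf-1 RV library (24.3% ± 3.97, n = 2, in KO and 1.76% ± 1.24, n = 4, in Tcf-1 RV, SD; exact permutation test, two-sided, p = 0.1333, adjusted over 3 classes 0.1333, the smallest it can give). Of fibroblast-only regions, 0.0241% and 0.0805% had a peak in KO, against 95.7%, 95.3%, 88.3% and 97.6% in Tcf-1 RV. Of shared regions, 82.4% and 85.1% had one in KO, against 99.1% to 99.9% in Tcf-1 RV. The KO lists were short, at 11171 and 12209 peaks, against 36583 to 62639 in Tcf-1 RV, and the part of list length in these shares was not tested. With DP WT replicate 1 left out of the class definition, the thymocyte-only difference between KO and Tcf-1 RV was 14.2 percentage points, against 22.5 with it.

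**Figure D5:**
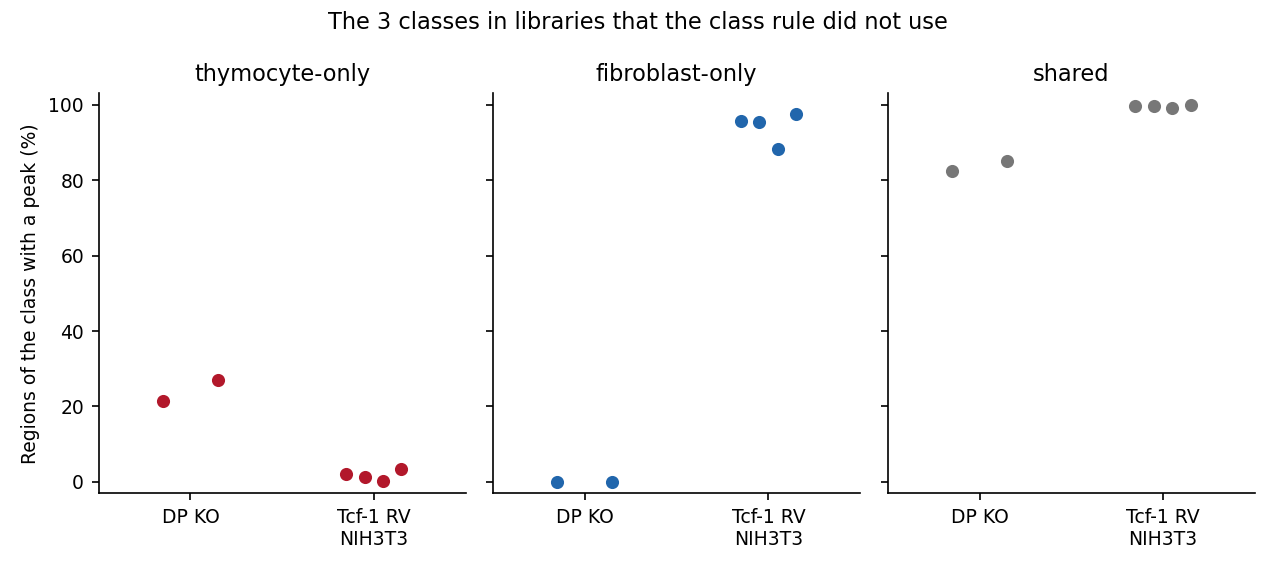
Percentage of regions of each class with a peak (y axis) in each KO library of DP thymocytes (left, 2 points) and each Tcf-1 RV library of NIH3T3 (right, 4 points), none of which defined the classes. Thymocyte-only regions are at 21.4% and 27.1% in KO and at most 3.32% in Tcf-1 RV, fibroblast-only regions near 0 in KO and at 88.3% or more in Tcf-1 RV, and shared regions above 80% in both.

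Within the KO libraries, both classes that DP WT cells hold were called more often at gene ends than away from them. Thymocyte-only regions at gene ends had a peak in 38.5% ± 2.51 on average, against 21.8% ± 4.23 for distal ones (SD, n = 2 KO libraries). Shared regions at gene ends had one in 91.4% ± 1.45, against 59.7% ± 3.57 for distal ones. Of thymocyte-only regions 6887 (68.7%) were in neither KO library and 1726 (17.2%) in both. H3K27me3 islands of NIH3T3 covered 13.6% of the first set and 19.9% of the second. The difference was present at gene ends (20.1% and 28.3%) and away from them (12.8% and 17.1%). Of the 8 thymocyte-only regions of the recombination genes 1 was in neither KO library, against 30 of the 47 regions of the receptor complex genes.

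Tcf-1 in fibroblasts met few of the thymocyte-only regions. A summit of Tcf-1 RV cells lay in 304 of them (3.03%), against 5415 fibroblast-only (43.6%) and 1807 shared regions (23.6%). The class rule asked for no Empty peak in thymocyte-only regions and for all 4 Empty libraries in the other classes. Summits come from the same line, so this contrast cannot be told apart from the presence or absence of a fibroblast peak. Of the 304 with a summit, 109 (35.9%, 95% interval 30.7% to 41.4%) had a peak in at least 1 Tcf-1 RV library, against 366 of the 9716 without (3.77%, 3.41% to 4.16%). All 4 Tcf-1 RV libraries held 14 of the 10020 thymocyte-only regions. The summits and the Tcf-1 RV peaks come from the same kind of cells, so these values are not independent of each other. Cd28 had 1 thymocyte-only region with a peak in 1 Tcf-1 RV library. Of the 47 regions of the receptor complex genes 23 lay in H3K27me3 islands.

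Start sites were compared on the 21263 RefSeq promoter windows of 17492 genes, with chromosome 18 not used here. A thymocyte-only region overlapped 901 of them, a fibroblast-only region 424 and a shared region 6456. Thymocyte-only promoters were as GC-rich as shared ones, at a median of 62.3% in each, against 57.5% for fibroblast-only and 56.3% for all promoters. The median number of CpG dinucleotides was 18 in thymocyte-only, 12 in fibroblast-only, 23 in shared and 13 in all promoters. H3K27me3 covered the midpoint of 25.9% of thymocyte-only, 0.708% of fibroblast-only and 0.155% of shared promoters, beside 20.3% of promoters without a region and 11.9% of all promoters. For H3K9me3 the shares were 16.4%, 2.36% and 0.682%, beside 9.51% without a region and 5.90% of all promoters. Windows of 1 gene can overlap, so the promoters are not independent.

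Most marked thymocyte-only promoters carried 1 of the 2 marks. H3K27me3 alone covered 212, H3K9me3 alone 127, both 21 and neither 541. The promoters with H3K9me3 alone had a median of 28 CpG dinucleotides, against 19.5 with H3K27me3 alone and 15 with neither. Among the genes with a thymocyte-only promoter in an H3K9me3 island, chosen after their values were seen, were Satb1, Myb (a factor that thymocytes need), Tox2, Flt3 (a receptor of early progenitors), Hhex, Nrarp (a feedback inhibitor of Notch) and Axin2 (a target of Wnt signalling). The promoters of Myb, Flt3 and Hhex were among the 21 with both marks.

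Between thymocyte-only and fibroblast-only promoters, the intervals were apart for CACCTG and AP-1, and also for the GC box and the CTCF core. CACCTG, read on both strands, was present in 32.9% of thymocyte-only promoters (95% interval 29.9% to 35.99%), 13.7% of fibroblast-only (10.7% to 17.3%), 14.5% of shared and 19.7% of all promoters. The AP-1 motif TGANTCA was in 3.77% of thymocyte-only (2.71% to 5.23%), 15.6% of fibroblast-only (12.4% to 19.3%), 3.76% of shared and 7.0% of all promoters. The TEAD motif was in 2.44%, 5.43%, 2.09% and 3.81% in the same order, and the RUNX motif in 6.10%, 3.77%, 2.97% and 4.71%, with overlapping intervals between the exclusive classes for each of these. The palindromic CAGCTG was at 20.0% of thymocyte-only and 20.5% of fibroblast-only promoters, and the TCF/LEF motif at 2.11% and 1.89%. The GC box GGGCGG was in 64.04% of thymocyte-only, 54.5% of fibroblast-only, 72.3% of shared and 46.2% of all promoters. The CTCF core AGGGGGC was in 19.8%, 12.3%, 17.1% and 12.9% in the same order. These motifs are not in capitals in the printed windows. In the central 150 bases of the windows, CACCTG was in 19.6% and 5.66% and AP-1 in 1.89% and 10.4% of thymocyte-only and fibroblast-only promoters. A match is a run of letters and was not tested for binding.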

How the data were processed

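ATAC-seq peak lists and histone ChIP-seq islands of mouse cells were analysed on GRCm38/mm10 coordinates. The deposited ATAC-seq files give the positions of peaks called per library, with no score. The submitters' processing notes name Bowtie2 2.2.9, STAR 2.5, MACS2, Picard, Trim Galore and FastQC, with no step assigned. The deposited islands carry a fold ratio over control and adjusted p-values of at most 0.01, both computed by the authors, and per the file names they come from SICER. The deposited Tcf-1 summits carry a score without a stated scale, which was not used. Depth is unknown.

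With Python 3.11.15, pandas 2.3.3, numpy 2.4.6 and scipy 1.17.1, peaks on unplaced sequences (139 in the 6 libraries) were left out and the rest merged at 1 bp overlap. A midpoint counted as inside a mark where both histone libraries had an island. A gene end was within 1 kb of either end of a RefSeq protein-coding span, and a region was assigned to the nearest gene within 50 kb. Libraries were compared by exact permutation tests, two-sided, with Benjamini-Hochberg adjustment, and shares carry 95% Wilson intervals. Steps were tested on simulated regions. Named genes were the 10 with the largest difference in each direction, the leading genes of each list, and further list genes and examples chosen after their values were seen. The members and lists were chosen with earlier results of these data known. Alternatives covered overlap rules, list length, day tags, distance windows, island rules and single libraries.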

Additional observations from a re-analysis of the deposited data

Results flagged for a closer look

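Peaks of Empty replicate 1 had a median width of 290 bp. The remaining Empty libraries had 317, 317 and 318 bp. Its gap to the nearest of them was 0.964 of the whole range of the group, above the 95% critical value for 4 samples. The list of this library was also the shortest of the Empty lists, at 22778 peaks. Of 10 groups of values looked at in this way, 1 was picked out, and chance picks out about 1 in 20.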

How the results depend on the processing

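Over 27 alternatives, 313 values of the main results were counted as kept, 41 moved, 1 reversed and 1 became 0. A count was kept if it moved by less than 1.5 times. A share was kept if it moved by less than the SD between libraries or between the histone libraries of a mark. Each share was judged alone, so a change in the order of the classes was not counted as reversed. A tested difference between groups of libraries was kept if its sign held, whatever the change in its size. Among single gene lists 196 kept and 14 moved. The reversed value was median width, at -27.0 bp (DP WT minus Empty, exact permutation p = 0.8) when every library was cut to its 22778 widest peaks. That cut also makes the difference in number of peaks 0 by construction and gave 7215 fibroblast-only regions, with H3K27me3 at 13.9% of thymocyte-only, 0.236% of fibroblast-only and 0.191% of shared regions. Day 4 libraries alone gave 30481 fibroblast-only regions at 9494 genes, a gene-end share of 66.8% for shared regions, H3K27me3 at 2.08% of fibroblast-only and 1.30% of shared regions, and H3K9me3 at 7.15% and 1.34% of these. Day 2 libraries alone gave H3K27me3 at 13.5% of thymocyte-only regions. Islands of either histone library gave H3K27me3 at 22.5%, 1.36% and 1.18% and H3K9me3 at 11.7%, 13.6% and 1.86% of thymocyte-only, fibroblast-only and shared regions. Islands of at least 2-fold gave H3K27me3 at 9.44%, 0.266% and 0.222% and H3K9me3 at 4.33%, 3.73% and 0.562%. There the H3K9me3 share was higher in thymocyte-only than in fibroblast-only regions, the reverse of the main setting. Any overlap with an island gave H3K27me3 at 16.5%, 0.588% and 0.68%, and H3K9me3 at 1.28% of shared regions. Absence judged over 1 kb gave H3K27me3 at 16.1% of thymocyte-only regions. Peaks covering at least 50% of a region left 3047 shared regions, with H3K27me3 at 0.46%. Promoter windows in place of gene ends, chosen after seeing the data, gave 10.2% for thymocyte-only regions. The causes were not tested.

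Leaving out 1 library at a time gave 10022 to 15962 thymocyte-only regions (the highest without DP WT replicate 1), 12459 to 19359 fibroblast-only regions (the highest without Empty replicate 1) and 7635 to 9689 shared regions. H3K27me3 then covered 14.48% to 15.09% of thymocyte-only, 0.4776% to 1.085% of fibroblast-only and 0.3521% to 0.805% of shared regions, and H3K9me3 0.9692% to 1.166% of shared regions. Correlations of deviations were -0.12 and 0.0517 for replicate numbers 1 and 2. They cannot show whether the numbers pair the libraries, since the deviations of 2 DP WT libraries from their mean are mirror images. A replicate block on these 2 pairs gave 12007 thymocyte-only, 13094 fibroblast-only and 7631 shared regions, H3K27me3 at 13.5% of thymocyte-only regions and a difference of 7.38 points between DP WT and Empty libraries.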

Other observations

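Over all chromosomes 44.6% of exclusive regions were thymocyte-only, and the chromosomes farthest from that share among those with over 100 regions are given here, chosen after their values were seen. On chromosome 14 there were 460 thymocyte-only and 349 fibroblast-only regions, so that 56.9% of its exclusive regions were thymocyte-only (95% Wilson interval 53.4% to 60.2%, counting error only). On chromosome 15 there were 427 and 783, or 35.3% (32.7% to 38.02%), and on chromosome 3 there were 529 and 946, or 35.9% (33.5% to 38.4%).

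H3K9me3 islands of NIH3T3 held 10.8% of the 1726 thymocyte-only regions called in both KO libraries (9.45% to 12.4%) and 6.71% of the 6887 called in neither (6.14% to 7.32%). At gene ends the values were 20.4% and 9.34%, and away from gene ends 7.70% and 6.38% with overlapping intervals.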
